A study of Mus musculus with 16 samples.

Results

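The genes described here are the 10 mouse genes that build, load and switch on the MHC class II antigen presentation pathway: H2-Aa, H2-Ab1 and H2-Eb1 for the classical chains, H2-DMa, H2-DMb1 and H2-DMb2 for the peptide exchange factor H2-DM, H2-Oa and H2-Ob for its inhibitor H2-DO, Cd74 for the invariant chain, and Ciita for the transactivator. They were chosen by name from the pathway, and 10 of the 21959 genes listed in each count table matched. All 10 passed the filter on low counts and were among the 13968 genes tested. Tumor RNA came from liver metastases in 16 male wild-type C57BL/6 mice, 4 per group, each injected in the spleen at 6 weeks of age with MC38, a mouse colon carcinoma cell line. The control group received PBS, the SB525334 group 20 mg/kg of this inhibitor of the type I TGF-β receptor by mouth every day, the KN046 group 10 mg/kg of this antibody against PD-L1 and CTLA-4 by intraperitoneal injection 2 times a week, and the combination group both. Every group carried the same MC38 graft in the same host strain, and each library was bulk tissue. The total count per mouse was 18368994 to 23877131.

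Class II molecules show peptides taken up from outside the cell to CD4+ T cells. An α and a β chain assemble in the endoplasmic reticulum around the invariant chain, which blocks the groove and steers the complex to endosomes. There H2-DM removes the remnant of the invariant chain and lets other peptides bind, and H2-DO restrains H2-DM. Dendritic cells, B cells and macrophages are the main cells that carry class II molecules. Many other cells make them after interferon-γ, which acts through IRF1 on the Ciita promoter. CIITA binds no DNA itself. It joins a complex that sits on the X box and the Y box of class II promoters, the X box bound by RFX proteins and the Y box by NF-Y.

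The promoter stretches of 7 of the genes are shown because this shared X and Y arrangement is what ties the class II genes to Ciita. The letters searched, on both strands of the 250 bases before to the 50 bases after each start (GENCODE M39 on GRCm39), were GCAAC for the core of the X box and ATTGG for the Y box, which reads CCAAT on the other strand. Capitals mark every GCAAC and ATTGG on the printed strand, which is the strand of the gene, 5′ to 3′, and each stretch ends at or before the annotated start.
H2-Aa, chr17:34506826-34506893, minus strand: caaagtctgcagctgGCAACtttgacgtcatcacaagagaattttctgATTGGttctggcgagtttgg
H2-Eb1, chr17:34524735-34524801, plus strand: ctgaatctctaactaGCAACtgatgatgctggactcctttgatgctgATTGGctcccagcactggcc
H2-Oa, chr17:34311262-34311314, plus strand: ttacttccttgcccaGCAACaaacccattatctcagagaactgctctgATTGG
H2-Ob, chr17:34457777-34457835, plus strand: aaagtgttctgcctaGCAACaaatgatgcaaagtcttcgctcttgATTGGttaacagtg
H2-Ab1, chr17:34482108-34482175, plus strand: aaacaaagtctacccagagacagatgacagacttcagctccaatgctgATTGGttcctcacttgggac
H2-DMa, chr17:34354503-34354559, plus strand: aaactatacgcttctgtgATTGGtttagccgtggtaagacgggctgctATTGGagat
H2-DMb2, chr17:34364085-34364152, plus strand: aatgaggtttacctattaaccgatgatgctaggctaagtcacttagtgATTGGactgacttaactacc

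In H2-Aa, H2-Eb1, H2-Oa and H2-Ob, GCAAC was followed by ATTGG on the same strand with 28, 27, 28 and 25 bases between them. A pair at a distance of 10 to 40 bases was found in these 4 of the 10 genes and in 1.48% of 21579 protein-coding promoters of the same length. Either word alone is common, with GCAAC in 34.3% and ATTGG in 40% of promoters, and in 6 and 8 of the 10 genes. In H2-Ab1, H2-DMa, H2-DMb2 and Cd74 the window held ATTGG without the paired GCAAC, and in H2-DMb1 and Ciita it held no ATTGG. A match is a description of letters and not evidence of binding, and the absence of one says only that these letters are not in this window.

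The classical chains and the invariant chain made up nearly all of the class II message. Per length, as CPM (counts scaled to the library total on edgeR's TMM scale) divided by the length of the canonical transcript in kilobases, the control means ran from 418 for Cd74 through 282 for H2-Ab1, 274 for H2-Aa and 179 for H2-Eb1 to 49.8 for H2-DMb1, 42.4 for H2-DMa, 3.94 for H2-DMb2, 3.62 for Ciita, 0.763 for H2-Ob and 0.412 for H2-Oa (n = 4 mice). Within the control group the ranges of the neighbours H2-Ab1 and H2-Aa overlapped, as did those of H2-DMb2 and Ciita, and of H2-Ob and H2-Oa. Within a mouse, H2-Ab1 was above H2-Aa in 2 of 4 control mice and H2-DMb2 above Ciita in 3 of 4, while H2-Ob was above H2-Oa in each of the 16 mice. The groups kept the same order apart from H2-Aa and H2-Ab1, which overlapped in all 4 groups. H2-Oa rests on 135 reads over all 16 mice and H2-Ob on 656, so their values carry the largest counting error, and Ciita rests on 6651. Fewer cells of a type and less RNA per cell cannot be told apart in any of these values. H2-Ea, the α chain that pairs with H2-Eb1 and is not transcribed in the haplotype of C57BL/6 mice, had 1 read in 1 KN046 mouse and 0 in the other 15 mice.

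**Figure D1:**
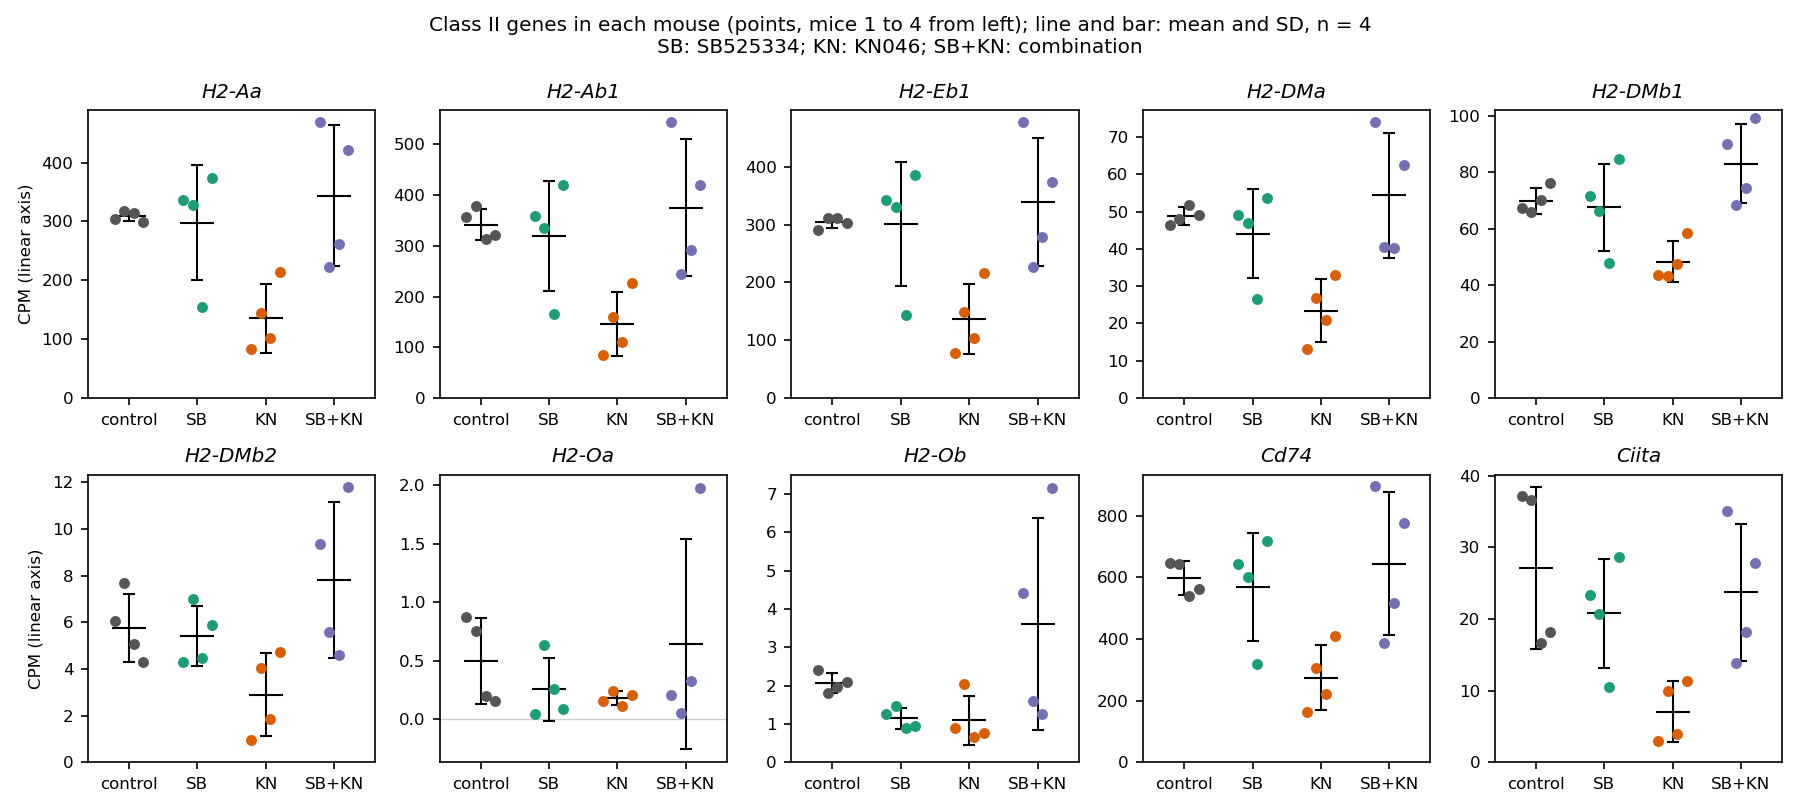
CPM of the 10 class II genes in each of the 16 mice (points, mice 1 to 4 from left to right in each group), on a linear axis for each gene; the line and bar are the mean and SD of 4 mice. For 7 genes every KN046 mouse lies below every control mouse, and for 9 genes combination mice 1 and 4 are above mice 2 and 3 (the exception is H2-Oa).

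Ciita, the regulator on which expression of the pathway depends, had the largest difference of the group between the KN046 and control mice (ENSMUSG00000022504, chromosome 16, 10297923 to 10347694). It had 37.1, 36.5, 16.6 and 18.2 CPM in control mice 1 to 4, and 23.4, 20.7, 10.5 and 28.6 CPM with SB525334. With KN046 it had 2.98, 9.97, 3.97 and 11.4 CPM, and with the combination 35.1, 13.9, 18.2 and 27.9 CPM. All 4 KN046 mice were below every control and every combination mouse, while the control, SB525334 and combination ranges overlapped. The control values fell into a high pair, mice 1 and 2, and a low pair, mice 3 and 4. The group means were 27.1 ± 11.2 CPM in the control group, 20.8 ± 7.63 under SB525334, 7.07 ± 4.21 with KN046 and 23.8 ± 9.55 with the combination (SD, n = 4 mice each).

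The classical chains changed together. H2-Aa, the I-A α chain (ENSMUSG00000036594, chromosome 17, 34493404 to 34506798), had 304.4, 317.0, 313.8 and 299.2 CPM in the control mice and 337.3, 327.3, 154.7 and 373.0 CPM with SB525334. It had 82.7, 143.7, 101.5 and 213.6 CPM with KN046 and 469.2, 222.9, 261.1 and 421.6 CPM with the combination. Every KN046 mouse was below every control and combination mouse, and SB525334 mouse 3 was the one mouse of its group in the KN046 range. H2-Ab1, the I-A β chain (ENSMUSG00000073421, chromosome 17, 34476663 to 34488393), had 356.0, 378.1, 313.1 and 321.3 CPM in the control mice and 85.4, 159.5, 110.7 and 227.3 CPM with KN046. With SB525334 it had 358.7, 334.7, 165.5 and 419.9 CPM, and with the combination 544.2, 244.2, 292.6 and 419.4 CPM. Again the KN046 mice lay below all control and all combination mice. H2-Eb1, the β chain of I-E (ENSMUSG00000060586, chromosome 17, 34504236 to 34535648), had 290.7, 311.9, 310.6 and 303.3 CPM in the control mice and 78.0, 148.8, 103.6 and 216.8 CPM with KN046. With SB525334 it had 342.2, 330.0, 144.4 and 386.5 CPM, and with the combination 477.6, 227.1, 278.5 and 374.5 CPM. The same mouse was lowest for all 3 chains in the SB525334 group (mouse 3), in the KN046 group (mouse 1) and in the combination group (mouse 2). The proportions between the chains hardly moved: the log2 ratio of H2-Ab1 to H2-Aa averaged 0.14 ± 0.12 in the control group, 0.10 ± 0.06 under SB525334, 0.10 ± 0.05 with KN046 and 0.13 ± 0.09 with the combination (SD, n = 4).

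The peptide exchange factor followed the chains to different degrees. H2-DMa, its α chain (ENSMUSG00000037649, chromosome 17, 34338515 to 34358958), had 46.3, 48.1, 51.9 and 49.0 CPM in the control mice and 13.3, 26.7, 20.8 and 32.9 CPM with KN046. With SB525334 it had 49.1, 46.9, 26.7 and 53.8 CPM, and with the combination 74.1, 40.6, 40.2 and 62.5 CPM. H2-DMb1, a β chain (ENSMUSG00000079547, chromosome 17, 34372046 to 34379204), ranged from 66.0 to 76.1 CPM in the control group, 47.7 to 84.8 under SB525334, 43.4 to 58.7 with KN046 and 68.5 to 99.1 with the combination. For both genes the KN046 mice lay below all control and all combination mice. H2-DMb2, the other β chain (ENSMUSG00000037548, chromosome 17, 34362197 to 34370529), ranged from 4.29 to 7.67 CPM in the control group, 4.29 to 7.01 under SB525334, 0.959 to 4.73 with KN046 and 4.59 to 11.8 with the combination, and KN046 mouse 4 overlapped both other groups. The transcripts of these β chains are 94.3% identical over 1129 aligned positions, and 13.7% of the 100-base windows of H2-DMb1 occur unchanged in H2-DMb2. How reads that align to both were counted is not given in the sources used here, so the split between them is uncertain. Their summed CPM was 75.6 ± 3.30 in the control group, 73.0 ± 15.9 under SB525334, 51.2 ± 8.40 with KN046 and 90.9 ± 17.2 with the combination (SD, n = 4), again with no overlap between the KN046 mice and the control or combination mice.

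H2-DO, the brake on H2-DM, is best known from B cells. H2-Ob (ENSMUSG00000041538, chromosome 17, 34457836 to 34473388) had 2.41, 1.80, 1.98 and 2.09 CPM in the control mice and 1.27, 1.47, 0.904 and 0.948 CPM with SB525334, so that the SB525334 mice were all below the control mice. With KN046 it had 0.906, 2.04, 0.671 and 0.779 CPM, and with the combination 4.42, 1.60, 1.26 and 7.16 CPM. Combination mice 1 and 4 were above every other mouse of the study, and mice 2 and 3 were below every control mouse. H2-Oa (ENSMUSG00000024334, chromosome 17, 34311314 to 34314328) had 20, 16, 4 and 3 reads in the control mice, 1, 16, 6 and 2 with SB525334, 3, 5, 2 and 4 with KN046 and 4, 1, 6 and 42 with the combination. Of the 135 reads in the study, 42 came from combination mouse 4. The log2 ratio of H2-DO to H2-DM per length had a range of -6.79 to -5.84 in the control group, -8.04 to -6.44 under SB525334, -7.32 to -5.90 with KN046 and -7.11 to -4.96 with the combination, and all 4 groups overlapped.

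Cd74, the invariant chain and the most abundant of the 10 messages (ENSMUSG00000024610, chromosome 18, 60936899 to 60945731), had 647.2, 641.7, 540.3 and 562.1 CPM in the control mice and 641.9, 600.2, 318.0 and 717.3 CPM with SB525334. It had 163.4, 307.1, 221.5 and 408.5 CPM with KN046 and 896.1, 388.7, 517.2 and 777.0 CPM with the combination. The KN046 mice were all below the control mice, and KN046 mouse 4 was above combination mouse 2. Its log2 ratio to H2-Aa averaged 0.95 ± 0.13 in the control group and 1.03 ± 0.09 with KN046 (SD, n = 4), and these ranges overlapped.

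KN046 alone against control asks whether the antibody on its own was accompanied by a change in class II message, and 6 of the 10 genes were called lower at an adjusted p under 0.05 (edgeR quasi-likelihood test over all genes) and 0 higher. Among all tested genes 4% were called and 2.4% were called lower. The log2 fold change was -1.94 for Ciita (standard error 0.43, adjusted p = 0.0269 from edgeR), -1.23 for H2-Ab1 (0.30, adjusted p = 0.0372), -1.19 for H2-Aa (0.30, adjusted p = 0.0386), -1.15 for H2-Eb1 (0.31, adjusted p = 0.0460), -1.12 for Cd74 (0.29, adjusted p = 0.0428) and -1.06 for H2-DMa (0.26, adjusted p = 0.0356). The 4 genes that did not pass had log2 fold changes of -0.53 for H2-DMb1 (adjusted p = 0.0626 from edgeR), -0.99 for H2-DMb2 (adjusted p = 0.154), -0.90 for H2-Ob (adjusted p = 0.272) and -1.44 for H2-Oa (adjusted p = 0.372). The median over the 10 genes was -1.14, against -0.03 over all tested genes. For 7 genes the 2 groups did not overlap, with all KN046 mice the lower ones, and this was so for 6.65% of tested genes. These calls sat close to the threshold and were not stable: 0 genes were called when control mouse 1, 2 or 4, KN046 mouse 1 or KN046 mouse 3 was left out, 1 (Ciita) without control mouse 3, 3 without SB525334 mouse 1, and 0 when only these 8 mice were fitted. Control mice 1 and 2, and 3 and 4, are pairs of libraries much closer to each other than other mice of a group (median chi-square between their counts 1.26 and 0.957, against at least 2.82), though 24.9% and 18.1% of genes still passed the 95% point for counting noise. With each pair summed to 1 sample 0 of the 10 genes and 0 of 14241 genes were called. The median log2 fold change over the 10 genes was then -1.14, and -1.42 to -0.945 with 1 mouse left out.

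SB525334 alone against control left the pathway without a call: 0 of the 10 genes passed in edgeR, 0 had an unadjusted p under 0.05, and 0 passed in DESeq2, where 9.61% of all tested genes were called in edgeR. The log2 fold changes of the classical chains were -0.05 for H2-Aa (95% interval -0.67 to 0.57), -0.10 for H2-Ab1 (-0.73 to 0.53) and -0.02 for H2-Eb1 (-0.65 to 0.62), and that of Ciita was -0.39 (-1.24 to 0.47). H2-Ob, the only one of the 10 genes whose SB525334 and control mice did not overlap, had -0.85 (standard error 0.48, adjusted p = 0.377 from edgeR), and 13.3% of tested genes were lower with no overlap in this comparison.

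The combination against control gave 0 calls in edgeR (0 at an unadjusted p under 0.05, 0 in DESeq2), where 11.1% of all tested genes were called. Here the groups overlapped for all 10 genes, while 5.32% of tested genes were higher and 12.1% lower with no overlap. The log2 fold change was 0.16 for H2-Aa (95% interval -0.46 to 0.77), 0.13 for H2-Ab1 (-0.50 to 0.76), 0.16 for H2-Eb1 (-0.48 to 0.79), 0.11 for Cd74 (-0.49 to 0.71) and -0.19 for Ciita (-1.05 to 0.66). Each lower bound lay above the value of the same gene with KN046 alone. That value has its own error and shares the control mice. For Ciita its interval, -2.84 to -1.03, overlapped that of the combination. The direct comparison of the combination with KN046 follows. For H2-Ob the value was 0.81 (-0.16 to 1.78), and 0.24 without combination mouse 4.

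Adding SB525334 to KN046 was accompanied by higher class II message. Of the 10 genes 9 were called higher with the combination than with KN046 alone and 0 lower, where 24.4% of all tested genes were called and 9.89% were called higher. The log2 fold change was 1.74 for Ciita (standard error 0.43, adjusted p = 0.00748 from edgeR), 1.36 for H2-Ab1 (0.30, adjusted p = 0.00373), 1.34 for H2-Aa (0.30, adjusted p = 0.00349), 1.31 for H2-Eb1 (0.31, adjusted p = 0.00538) and 1.23 for Cd74 (0.29, adjusted p = 0.00576). The H2-DM genes had 1.43 for H2-DMb2 (adjusted p = 0.0163 from edgeR), 1.21 for H2-DMa (adjusted p = 0.00255) and 0.78 for H2-DMb1 (adjusted p = 0.00145), and H2-Ob had 1.71 (adjusted p = 0.0171). H2-Oa had 1.81 (standard error 0.93, adjusted p = 0.158 from edgeR), and 0.12 without combination mouse 4. The means of the combination were 2.54 times those of KN046 for H2-Aa, 2.57 times for H2-Ab1, 2.34 times for Cd74 and 3.36 times for Ciita. In 6 genes (H2-Aa, H2-Ab1, H2-Eb1, H2-DMa, H2-DMb1 and Ciita) all combination mice were above all KN046 mice, as in 7.9% of tested genes. Leaving out any 1 mouse left 9 genes called, apart from combination mouse 4, without which H2-DMb2 and H2-Ob did not pass (H2-Ob at 1.14) and 7 were called.

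The combination against SB525334 alone called 0 of the 10 genes in edgeR, 1 at an unadjusted p under 0.05 (H2-Ob) and 1 in DESeq2 (H2-Ob), where 3.57% of all tested genes were called in edgeR. The log2 difference of H2-Ob was 1.65 (standard error 0.48, adjusted p = 0.0715 from edgeR), and it was called without KN046 mouse 2, without combination mouse 2 and without combination mouse 3. The other 9 genes differed by 0.17 to 1.31 on the log2 scale.

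The interaction asks whether SB525334 acted differently in the presence of KN046, and 4 of the 10 genes were called, all higher, where 4.28% of all tested genes were called and 1.73% were called higher. The difference of the log2 fold changes was 2.55 for H2-Ob (standard error 0.68, adjusted p = 0.0402 from edgeR), 2.13 for Ciita (0.59, adjusted p = 0.0496), 1.36 for H2-DMa (0.36, adjusted p = 0.0398) and 0.83 for H2-DMb1 (0.22, adjusted p = 0.0393). The classical chains had 1.33 to 1.46 with adjusted p-values of 0.0641 to 0.101 from edgeR, and Cd74 had 1.30 (adjusted p = 0.0887). This count rested on single mice: 0 genes were called without control mouse 1 or 2, without SB525334 mouse 1, 2 or 3, without KN046 mouse 1 or 3, or without combination mouse 1 or 4, and 1 (Ciita) without control mouse 3 or 4. It was 7 without KN046 mouse 4 and 7 without combination mouse 2. With the similar control libraries summed it was 0. The comparisons with KN046 and with control share mice, so their values are side by side here and are not independent of each other.

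**Figure D2:**
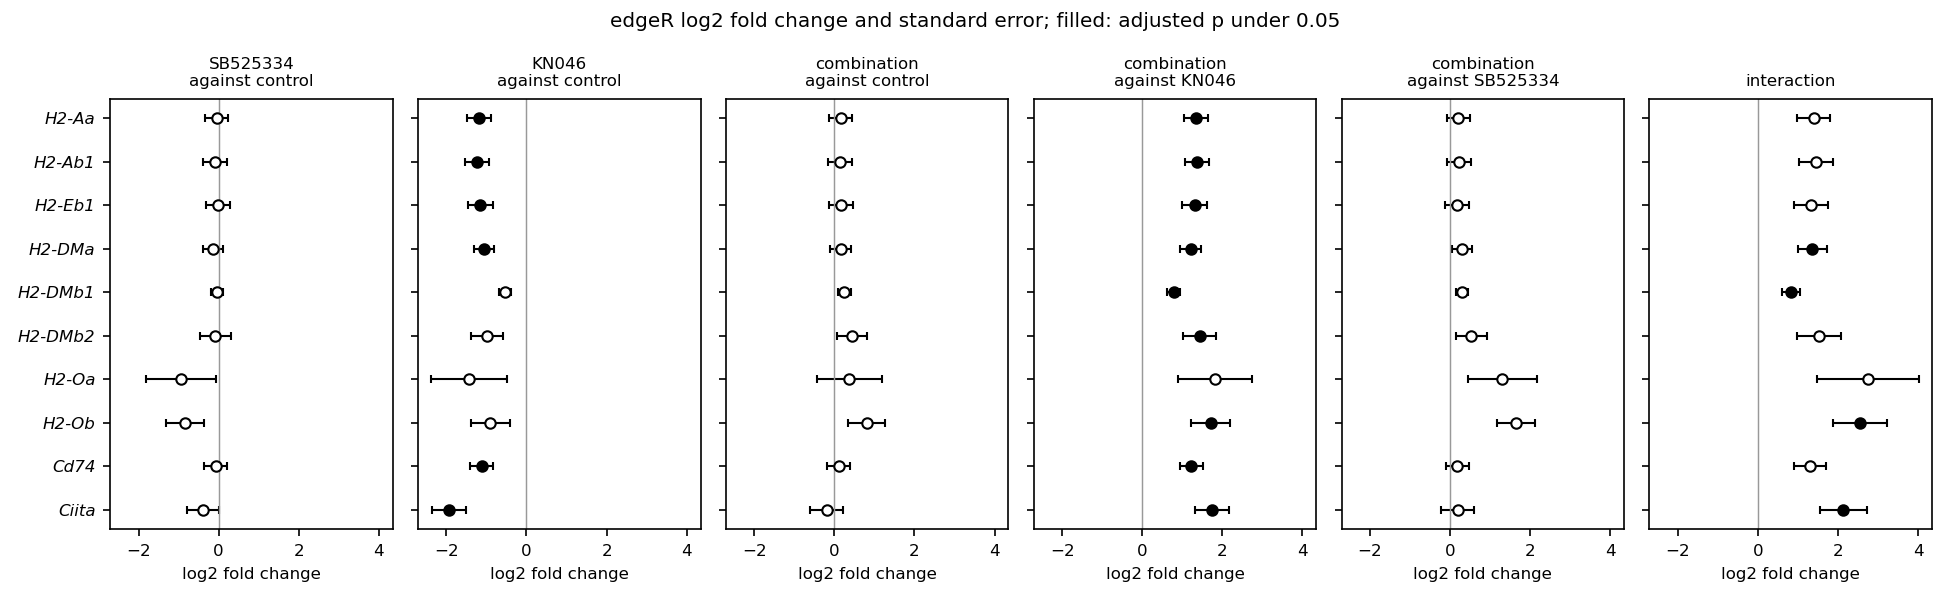
edgeR log2 fold changes (points) and standard errors (bars) of the 10 class II genes in the 5 pairwise comparisons and the interaction, with filled points for an adjusted p under 0.05. KN046 against control has 6 filled points, all below 0, the combination against KN046 has 9, all above 0, and 3 of the comparisons have 0.

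Within the group, 5 genes moved as a block across mice. Over the 16 mice, Pearson's r of log2(CPM + 1) between H2-Aa, H2-Ab1, H2-Eb1, Cd74 and H2-DMa was 0.978 to 0.996, and for the deviations from the group means 0.953 to 0.991. These values are a description over mice that share treatments and libraries. Between all 10 genes the range was wider, 0.305 to 0.996, and 0.122 to 0.991 for the deviations. Against the mean of the 3 classical chains, r was 0.948 for Ciita (0.876 for the deviations), 0.913 for H2-DMb1 and 0.875 for H2-DMb2. It was only 0.581 for H2-Ob and 0.342 for H2-Oa, the genes with the fewest reads. The 5 genes outside the group with the pattern most like the classical chains were Zfp952 (r = 0.970), Pfkfb4 (0.947), Irf1 (0.944), Slamf8 (0.944) and Cxcl9 (0.942), the last a chemokine induced by interferon-γ. For the deviations from the group means their r was 0.863 to 0.947, over the same mice on which they were picked.

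Upstream of Ciita, the interferon-γ list (the cytokine, its receptor, JAKs, IRF1, IRF2 and SOCS1, with 7 of 8 genes tested) had 3 genes called lower and 0 higher with KN046 against control, and 5 higher and 0 lower with the combination against KN046. Of all tested genes 2.4% were called lower in the first comparison and 9.89% higher in the second. Irf1, which binds the Ciita promoter, had 120.8 to 140.4 CPM in the control mice, 25.7 to 94.8 with KN046 and 96.3 to 187.2 with the combination, and its log2 fold changes were -1.28 (adjusted p = 0.04 from edgeR) and 1.46 (adjusted p = 0.00358). The KN046 mice lay below all control and all combination mice for Irf1. They lay below all control mice for 6.65% of tested genes and below all combination mice for 7.9%. Irf2 and Ifngr2 were also called lower with KN046, and Socs1 and Ifngr1 joined these 3 among the genes called higher with the combination. Calls with KN046 against control were not stable over all genes. Their number went from 559 to 75 with only the compared groups fitted, and to 0 with the similar control libraries summed. Ifng itself had too few reads to be tested, with 13 over the 4 control mice, 11 under SB525334, 2 with KN046 and 19 with the combination, of which 16 were in mouse 1. The rule for naming genes, the lowest p in the combination against control, gave Jak2 (log2 fold change -0.22, adjusted p = 0.352 from edgeR), Socs1 (0.42, adjusted p = 0.407) and Ifngr1 (0.14, adjusted p = 0.409) in that comparison. The other genes named in the pathway lists were chosen after their values were seen.

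**Figure D3:**
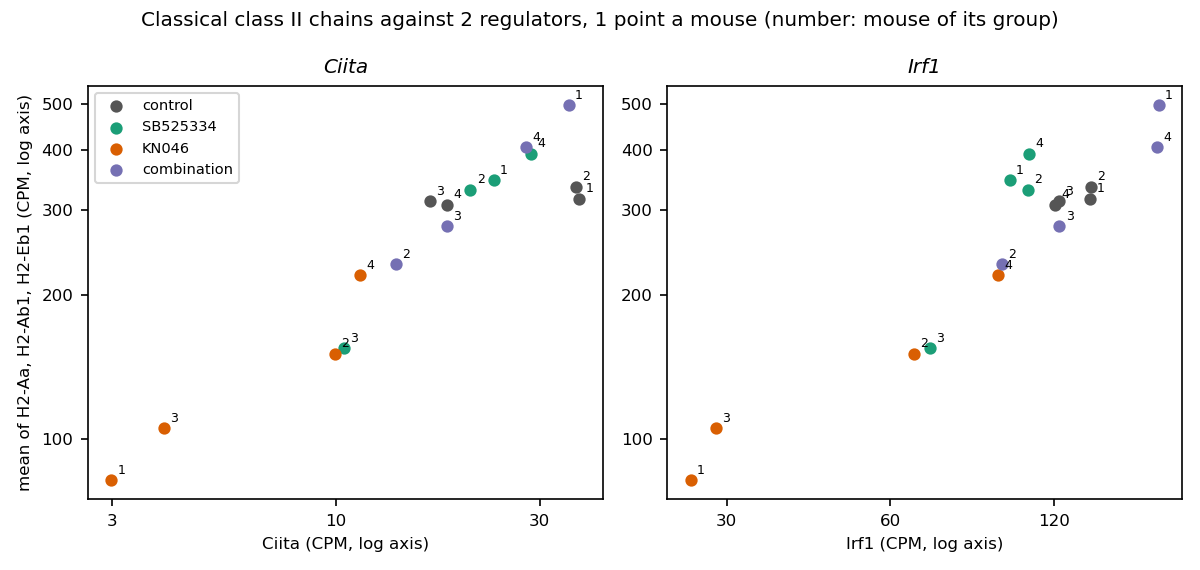
Mean CPM of H2-Aa, H2-Ab1 and H2-Eb1 against the CPM of Ciita and Irf1, each axis logarithmic, with 1 point a mouse and its number within the group. KN046 mice 1 and 3 lie at the lower left in both panels, and combination mice 1 and 4 at the upper end of the classical chains.

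The proteins that CIITA joins at class II promoters had 2 calls among 10 genes with the combination against KN046, where 24.4% of all tested genes were called. Of these partners (RFX, NF-Y and CREB subunits and acetyltransferases) 0 were called with KN046 against control. With the combination against KN046 1 was called higher, Nfya at 0.49 on the log2 scale (adjusted p = 0.0455 from edgeR). The other call was lower, the acetyltransferase gene Crebbp at -0.57 (adjusted p = 0.0361 from edgeR). Rfx5, the X box factor, had 0.14 (adjusted p = 0.664 from edgeR) and -0.11 (adjusted p = 0.655) in these comparisons. Among 5 lineage regulators of Ciita, Irf8 was called lower with KN046, at -1.0 on the log2 scale (adjusted p = 0.0166 from edgeR), and Irf8 and Spi1 were called higher with the combination against KN046, at 0.79 (adjusted p = 0.00611) and 0.74 (adjusted p = 0.0251). Of all tested genes 2.4% were called lower with KN046 against control, and 9.89% higher with the combination against KN046. The Irf8 call with KN046 against control has the limits given above for that comparison. In the combination against control, the lowest p-values of these lists belonged to Crebbp (-0.35), Nfyb (0.21) and Kat2b (-0.19), with adjusted p-values of 0.283 to 0.407 from edgeR, and to Pax5 (2.40), Irf8 (-0.21) and Prdm1 (-0.31), with 0.0923 to 0.679.

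Downstream, the 16 genes of class II processing and trafficking (cathepsins, tetraspanins and others) had 0 calls with KN046 against control. With the combination against KN046 they had 3 calls, all higher, where 24.4% of all tested genes were called and 9.89% were called higher. These were Ifi30, the lysosomal thiol reductase (0.66, adjusted p = 0.0122 from edgeR), Cst3, a cathepsin inhibitor (0.51, adjusted p = 0.0104), and Ctss, the cathepsin that trims the invariant chain (0.55, adjusted p = 0.0407). In the combination against control the tetraspanin Cd63 was the 1 gene called, where 11.1% of all tested genes were called. It had 0.60 (adjusted p = 0.0343 from edgeR), next to 0.40 for Cd9 (adjusted p = 0.0832) and 0.27 for Cst3 (adjusted p = 0.232). The median of this list was -0.03 with KN046 against control and 0.04 with the combination against KN046, next to -1.14 and 1.35 for the 10 class II genes. Among 7 costimulatory genes of antigen-presenting cells, Cd40, Cd83 and Tnfsf9 were called lower with KN046 (log2 fold changes -1.15, -0.60 and -0.96, with adjusted p-values of 0.0331, 0.0482 and 0.0420 from edgeR) and higher with the combination against KN046 (1.34, 0.72 and 1.12). Of all tested genes 2.4% were called lower with KN046 against control, and 9.89% higher with the combination against KN046. The calls with KN046 against control were not stable, as 0 of 14241 genes were called with the similar control libraries summed. In the combination against control, Cd80 (-0.37), Cd86 (-0.23) and Cd83 (0.12) had adjusted p-values of 0.508 to 0.713 from edgeR. Cd4, the T cell coreceptor for class II, had -1.04 with KN046 (adjusted p = 0.177 from edgeR) and was called higher with the combination against KN046, at 1.36 (adjusted p = 0.0356), and Lag3, the inhibitory receptor for class II, was called in neither. H2-Eb2, a further β chain gene of the locus, had 24, 17, 15 and 63 reads in the control, SB525334, KN046 and combination groups and was called in none of the comparisons.

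Markers of immune and liver cells were summed per mouse beside these results. Of all tested genes 4% were called with KN046 against control and 2.4% were called lower. With the combination against KN046 24.4% were called, 9.89% higher and 14.5% lower. The marker calls with KN046 against control have the same limits as those of the class II genes in that comparison. The summed CPM of the 6 monocyte markers was 935 to 1102 in the control mice and 905 to 1368 under SB525334. It was 364 to 795 with KN046 and 930 to 1602 with the combination. The KN046 sums did not overlap those of the other groups. Of single tested genes, 6.65% were lower with no overlap with KN046 against control, and 7.9% higher with the combination against KN046. Of the 6 markers 1 was called lower with KN046 against control and 2 higher with the combination against KN046. A sum is weighted to the most abundant markers. The mean sum was 1015 in the control mice and 1205 with the combination, while the median log2 fold change of the 6 markers was -0.33 in that comparison. In the control, SB525334, KN046 and combination mice, the 10 macrophage markers had 977 to 1067, 885 to 1333, 637 to 1161 and 984 to 1087. The 10 dendritic cell markers had 57.7 to 94.0, 45.1 to 75.9, 25.4 to 60.1 and 41.9 to 93.2. With KN046 against control 0 of the macrophage and 0 of the dendritic cell markers were called, and with the combination against KN046 5 macrophage markers were called higher and 1 lower, and 0 dendritic cell markers. The 6 markers of Kupffer cells, the resident macrophages of the liver, had 162 to 332 CPM in the control mice, 9.95 to 25.1 under SB525334, 53.7 to 393 with KN046 and 1.80 to 13.1 with the combination. Of these 6, 0 were called with KN046 against control and all 6 lower with the combination against KN046. For the 6 T cell markers the sums were 17.7 to 22.2 CPM in the control mice and 9.60 to 16.5 under SB525334. They were 3.52 to 9.19 with KN046 and 16.5 to 33.8 with the combination. The sums under SB525334 and with KN046 were thus all below those of the control mice. Of the 6 markers 0 were called with SB525334 against control, 4 lower with KN046 against control and all 6 higher with the combination against KN046. The 15 hepatocyte markers had 13051 to 14100 CPM in the control mice, 260 to 1549 under SB525334, 8857 to 17048 with KN046 and 11.7 to 18.2 with the combination, and the 7 epithelial markers 150 to 249, 37.0 to 51.4, 124 to 202 and 6.88 to 16.6, with Epcam at 4.17 CPM or less in every mouse. With KN046 against control 0 markers of these lists were called, and with the combination against KN046 all 15 hepatocyte and 4 of the 7 epithelial markers were called lower. In the combination against control the epithelial markers with the lowest p were Krt18 (log2 fold change -8.02), Krt8 (-8.29) and Epcam (-2.77). The median of the hepatocyte list was -9.75 there. Whether the epithelial markers came from tumor or liver cells was not tested. How much of the class II differences goes with these cell contents was not tested. With the scaling computed without liver-type genes, 6 of the 10 genes were called with KN046 against control and 9 with the combination against KN046. These 932 genes were the 15 hepatocyte markers and all genes with a control mean over 4 times the combination mean. They were thus picked from these data. Leaving them out changes the scaling only and does not adjust for the cell content.

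Relative to Ptprc, the common leukocyte gene, Ciita was lower in every KN046 mouse than in every control and combination mouse, as were 0.129% of the tested genes, while the KN046 and SB525334 ranges overlapped. The log2 ratio of Ciita to Ptprc was -1.34 to -1.14 in the control mice, -1.70 to -0.50 under SB525334, -2.83 to -1.41 with KN046 and -1.17 to -0.81 with the combination. For the other 9 genes the KN046 ratios overlapped those of both the control and the combination mice. The H2-Aa ratio, for example, was 1.82, 1.86, 2.90 and 2.90 in control mice 1 to 4, 1.51 to 2.82 with KN046 and 2.67 to 2.93 with the combination. Ptprc itself had 86.3, 87.2, 42.0 and 40.1 CPM in control mice 1 to 4 and 34.0 to 49.0 under SB525334. It had 21.3 to 50.6 with KN046 and 30.6 to 61.5 with the combination, and was called in none of these comparisons. Control mice 1 and 2, a pair of similar libraries, were higher than mice 3 and 4 for both Ptprc and Ciita but not for H2-Aa. The narrow control range of the Ciita ratio and the wide one of the H2-Aa ratio go with this split.

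**Figure D4:**
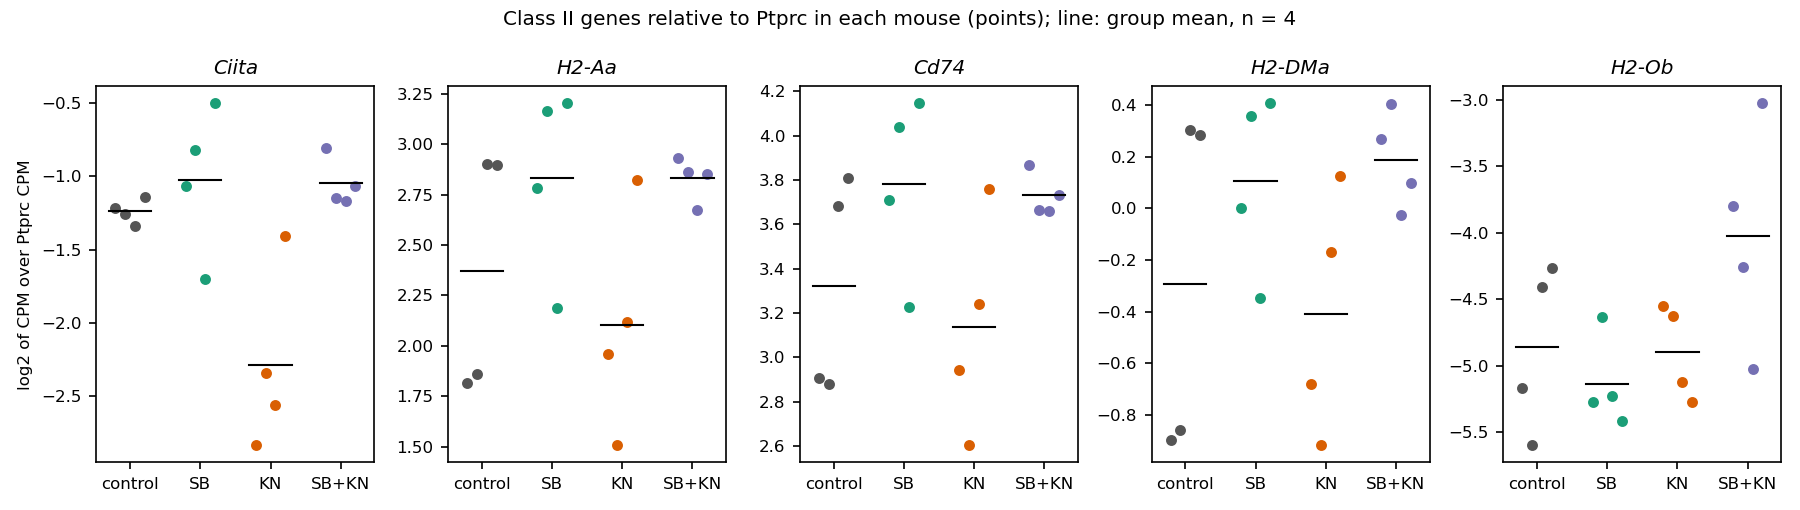
log2 ratio of the CPM of 5 class II genes to that of Ptprc in each mouse (points), with the mean of 4 mice (line). For Ciita all KN046 mice lie below all control and combination mice, and for the other genes shown the groups overlap.

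H2-Ob was highest in the combination mice with the most B cell message. The summed CPM of 10 B cell genes was 29.7 and 76.4 in combination mice 1 and 4, which also had the most H2-Ob, and 4.86 and 4.26 in combination mice 2 and 3. It was 6.24 to 11.9 in the control mice, 2.19 to 6.55 with SB525334 and 5.35 to 20.5 with KN046, where mouse 2 was the highest for both H2-Ob and the B cell genes. In the control group H2-Ob was highest in mouse 1 and the B cell genes in mouse 2, and under SB525334 H2-Ob was highest in mouse 2 and the B cell genes in mouse 1. Of the 10 B cell genes, Cd79a and Cd79b, the signalling chains of the B cell receptor, were called higher with the combination against control, with log2 fold changes of 2.82 (standard error 0.85, adjusted p = 0.0373 from edgeR) and 2.59 (0.75, adjusted p = 0.0297), and Ms4a1, which encodes CD20, had 3.05 (1.09, adjusted p = 0.0908). Of the list, 0 genes were called with SB525334 or with KN046 against control, 1 was called with the combination against KN046 and 4 against SB525334. The shares of all tested genes called with the combination were 11.1% against control, 24.4% against KN046 and 3.57% against SB525334. Ms4a1 had 63, 8, 1 and 229 reads in combination mice 1 to 4. The part of these cells in the H2-Ob values was not tested.

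**Figure D5:**
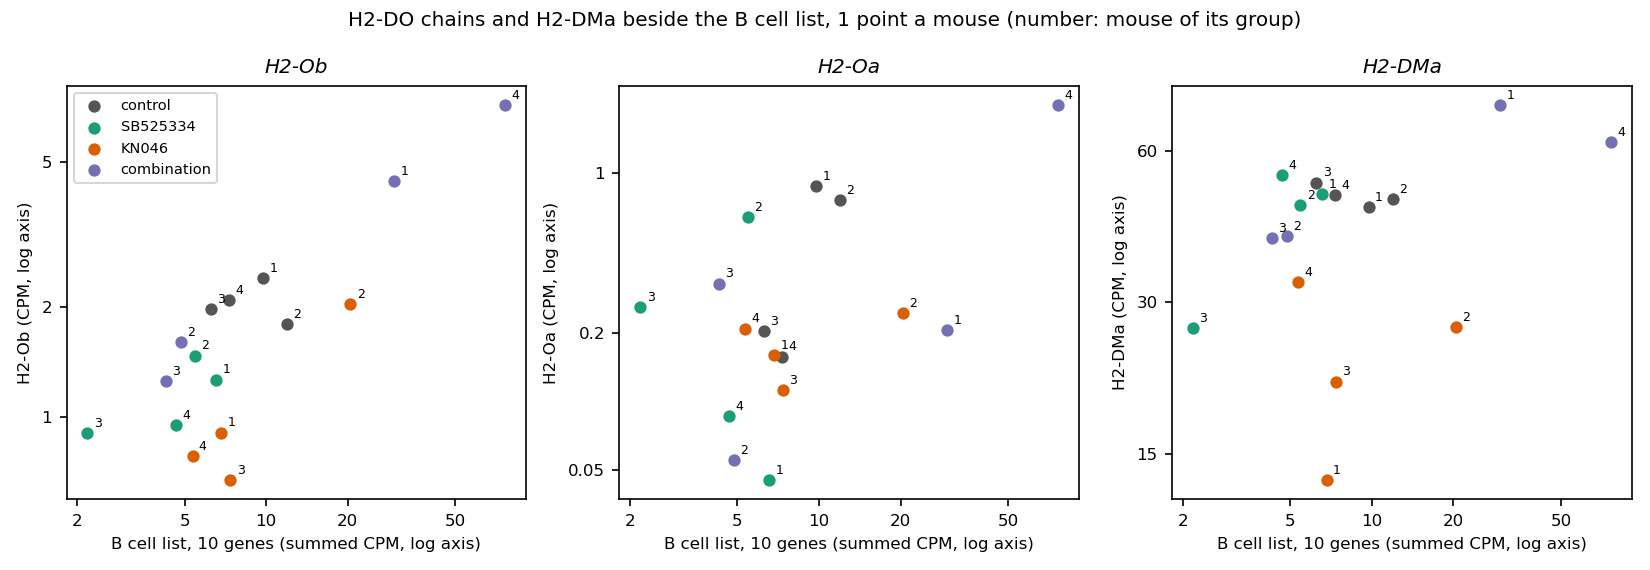
CPM of H2-Ob, H2-Oa and H2-DMa against the summed CPM of 10 B cell genes, both axes logarithmic, with 1 point a mouse and its number within the group. Combination mice 1 and 4 are the highest for the B cell genes and for H2-Ob, and for H2-Oa only mouse 4 is.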

How the data were processed

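Tumor RNA of 16 mice was analysed. The authors deposited whole-number counts per gene and normalized tables, of which the latter were not used here. The submitters' processing notes name cutadapt 2.7, HISAT2 2.2.1, HTSeq 2.0.4, DESeq2 1.38.3 and the build GRCm39. The settings for strand and for reads with several alignments are not given in the sources used here, so exons shared with another gene are uncertain: 118 bases between H2-Aa and H2-Eb1, 510 between H2-DMa and Brd2, and 633 between Ciita and Dexi.

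The counts were tested in R 4.3.3 with edgeR 4.0.16: filterByExpr with a minimum count of 10, TMM scaling, 1 quasi-likelihood fit of 4 groups, and Benjamini-Hochberg adjustment over 13968 genes with a threshold of 0.05. Intervals of 95% came from the same fit. The totals of 18368994 to 23877131 counts per mouse limit low genes most. The p-values measure the spread between libraries. They, the SDs and n = 4 take each library as a separate mouse. Whether this holds for the similar control libraries was not tested. If it does not, the spread between control mice is not fully measured. The alternatives were DESeq2 1.42.0, RLE size factors, no filter, a mean of at least 1 CPM, the compared groups alone, the replicate number as a block, similar control libraries summed, scaling without liver-type genes, and each mouse left out. The members and lists were chosen with earlier results of these data known. Named genes were the 10 class II genes, H2-Ea and H2-Eb2, up to 3 genes of each other list with the lowest p in the combination against control, and the 5 genes most like the classical chains. Other list genes named were chosen after their values were seen. Of the 21959 identifiers 21770 were in GENCODE M39, from which lengths, positions and promoter windows were taken. The main fit did not pair mice by replicate number. Values of some list genes are not reported here.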

Additional observations from a re-analysis of the deposited data

Results flagged for a closer look

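H2-Oa in combination mouse 4 stood apart, with 1.98 CPM against 0.328 CPM in the next mouse of its group. Its gap of 0.858 of the group's range passed Dixon's 95% critical value for 4 samples. It was 1 flag in 40 groups of 4 mice, where chance flags about 1 in 20.

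The effect of SB525334 differed with and without KN046 for 4 genes by the interaction test in edgeR. The differences of the log2 fold changes were 1.36 for H2-DMa (adjusted p = 0.0398), 0.83 for H2-DMb1 (adjusted p = 0.0393), 2.55 for H2-Ob (adjusted p = 0.0402) and 2.13 for Ciita (adjusted p = 0.0496). These calls did not hold without several single mice, as given with the interaction above.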

How the results depend on the processing

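The 9 calls of the combination against KN046 were within 1.5 times that count under every alternative run, and leaving out 1 mouse gave 7 to 9. No log2 fold change of the 10 genes changed sign in the interaction, with KN046 against control or with the combination against KN046. The median over the 10 genes did in SB525334 against control, from -0.09 to 0.07 without SB525334 mouse 3, and in the combination against control, from 0.16 to -0.00483 without combination mouse 1. The 6 calls of KN046 against control became 0 with only the compared groups fitted and 0 with the similar control libraries summed, and leaving out 1 mouse gave 0 to 7, while over all genes its 559 calls became 75 with the groups fitted alone, 1250 in DESeq2, and 21 (without KN046 mouse 1) to 2096 (without KN046 mouse 2). The 4 interaction calls became 8 in DESeq2 and 0 with the control libraries summed, and 0 to 7 with 1 mouse left out. The combination against SB525334 had 0 calls, 1 in DESeq2 (H2-Ob) and 0 to 1 with 1 mouse left out. SB525334 and the combination against control had 0 calls throughout. Over all genes, fitting the groups alone took the combination against KN046 from 3406 to 1855 calls and against SB525334 from 499 to 294, and the interaction went from 598 to 951 in DESeq2 and 298 with the control libraries summed. With the replicate number as a block, KN046 against control gave 7 calls and the interaction 5, and the other counts kept their values. The labels do not say that a number marks a shared batch, and same-numbered mice correlated at -0.48 to 0.53, over 0.1 in 11 of 24 pairs. The cause of these shifts was not tested. Depth limits H2-Oa and H2-Ob.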
